A study of Homo sapiens with 10 samples.

Results

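The binding of HER2 to chromatin after EGF was compared with H3K4me1, the monomethylation of lysine 4 on histone H3, in BT474 cells. The members were the HER2 ChIP-exo peaks of EGF-treated BT474 cells that overlapped, by at least 1 bp, an H3K4me1 island in each of the 2 BT474 replicates. There were 2959 such peaks among the 29326 of the list, and 43001 HER2 peaks were listed in the 4 HER2 lists of the series. They were compared with 25210 peaks of the same list that overlapped no island of either replicate. A further 1157 peaks overlapped an island of a single replicate (689 in replicate 1 and 468 in replicate 2) and entered neither set.

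The HER2 lists came from asynchronous BT474 or SKBR3 cells that were given vehicle (water) or EGF at 100 ng/ml for 3 hours, without removal of serum, and each of the 4 conditions had 1 list and no replicate. H3K4me1 ChIP-seq had 2 replicates per line, in cells that the labels call asynchronous and the study's text calls EGF-treated, so whether both marks were mapped under the same treatment was not settled here. Both are established human breast cancer lines with an amplified ERBB2 gene, which encodes HER2. The label does not say whether the 2 replicates came from separate cultures. Islands were broad stretches of H3K4me1 reads called in steps of 200 bp, 96293 of them in BT474 replicate 1 and 89478 in replicate 2, holding 18714089 and 15097245 reads. The HER2 lists carry no reads, so their depth is unknown. As a check of the labelled cells, the start site of all 10 luminal marker genes, KRT8, GATA3 and FOXA1 among them, had an island within 2 kb in both BT474 replicates, as did 5 of 6 basal or mesenchymal and 2 of 4 blood genes, and 13379 of all 20136 protein-coding genes.

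HER2 is a receptor tyrosine kinase with no ligand of its own. It signals from the cell surface after pairing with EGFR or ERBB3, through the MAP kinase and PI3K pathways, and full-length HER2 has also been found in the nucleus on chromatin. H3K4me1 marks enhancers, both active and poised, and the flanks of active promoters, and its pattern differs between cell types more than that of most promoter marks.

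Sequences that reach 50 bases to either side of the peak midpoint (GRCh37, the same coordinates as hg19, plus strand) are shown for 3 kinds of member. The first are members in genes that the study names, MAP3K13, a kinase at the top of a MAP kinase cascade, and PRKCH, protein kinase C eta.

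MAP3K13, chr3:185082206-185082306: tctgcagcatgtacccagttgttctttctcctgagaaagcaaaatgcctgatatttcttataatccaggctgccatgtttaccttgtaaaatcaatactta
PRKCH, chr14:61824187-61824287: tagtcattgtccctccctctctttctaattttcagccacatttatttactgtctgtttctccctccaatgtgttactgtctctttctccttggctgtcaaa
PRKCH, chr14:61984302-61984402: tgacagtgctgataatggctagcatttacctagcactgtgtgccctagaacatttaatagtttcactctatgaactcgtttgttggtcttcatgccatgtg

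The second are the 3 members with the highest HER2 score, each named by the nearest protein-coding start site. CPLANE1 encodes a protein of the primary cilium and SHH the Sonic hedgehog ligand. They are shown with the highest-scoring member at DIP2C, which was chosen after its values were seen. SHH, GSE1 and DIP2C were built from repeated short words.

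CPLANE1, chr5:37110106-37110206: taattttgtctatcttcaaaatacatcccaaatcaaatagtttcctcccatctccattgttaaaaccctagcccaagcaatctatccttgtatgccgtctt
SHH, chr7:155652463-155652563: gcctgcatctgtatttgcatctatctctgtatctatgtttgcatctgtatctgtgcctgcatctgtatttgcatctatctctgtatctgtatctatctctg
GSE1, chr16:85184596-85184696: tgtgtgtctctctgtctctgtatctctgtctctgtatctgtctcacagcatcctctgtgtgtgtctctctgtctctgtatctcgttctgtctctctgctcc
DIP2C, chr10:714487-714587: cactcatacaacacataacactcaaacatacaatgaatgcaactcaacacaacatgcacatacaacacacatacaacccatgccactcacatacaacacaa

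The last hold the core CGTNTGC, the motif that the study describes at HER2 sites, on either strand and in capitals. ACIN1 and RIPOR3 lie nearest to the 2 highest-scoring members with the core, and SRF and AKT1 are signalling genes of the lists below. These 4 were also chosen after their values were seen.

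ACIN1, chr14:23535386-23535486: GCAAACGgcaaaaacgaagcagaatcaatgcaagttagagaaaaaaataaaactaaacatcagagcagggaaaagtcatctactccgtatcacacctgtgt
RIPOR3, chr20:49188414-49188514: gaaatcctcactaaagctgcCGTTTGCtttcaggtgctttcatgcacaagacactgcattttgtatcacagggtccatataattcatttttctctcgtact
SRF, chr6:43140301-43140401: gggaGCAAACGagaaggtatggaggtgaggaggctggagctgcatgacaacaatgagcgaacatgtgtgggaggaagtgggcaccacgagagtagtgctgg
AKT1, chr14:105257702-105257802: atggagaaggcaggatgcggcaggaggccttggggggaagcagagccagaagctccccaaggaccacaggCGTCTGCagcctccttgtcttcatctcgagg

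The first question was how often HER2 sites of EGF-treated cells lay at enhancer chromatin. In BT474 cells 10.09% of the peaks were members (95% Wilson interval 9.75 to 10.4%). An island of replicate 1 held 12.4% of the peaks and one of replicate 2 held 11.7%, a mean of 12.1% ± 0.533 (SD, n = 2 H3K4me1 replicates). As a control every peak was moved by 20, 50, 100, 150 and 200 kb to either side, and the moved peaks landed in islands of both replicates in 10.7% of cases on average, between 10.5 and 10.9% over the 10 moves. All 10 moves gave a higher share than the peaks as listed, and the ratio of listed to moved was 0.943. The members were thus not more frequent than among the moved peaks. By the paper's methods blacklisted and high-input regions were removed from the listed peaks, whereas moved peaks were free to land there. How this affects the ratio was not tested.

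Shorter moves gave the lowest shares. Moving the peaks by 0.5 kb brought 9.59% (upstream on the plus strand) and 9.70% (downstream) into islands of both replicates, below the 10.09% of the listed positions. At 1 kb the shares were 9.78 and 9.86%, and at 10 kb they were 10.6 and 10.5%. The HER2 sites therefore lay in stretches of a few kb with slightly less island cover than their surroundings, and at the sites themselves the share stood a little above that of the bases beside them.

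**Figure D1:**
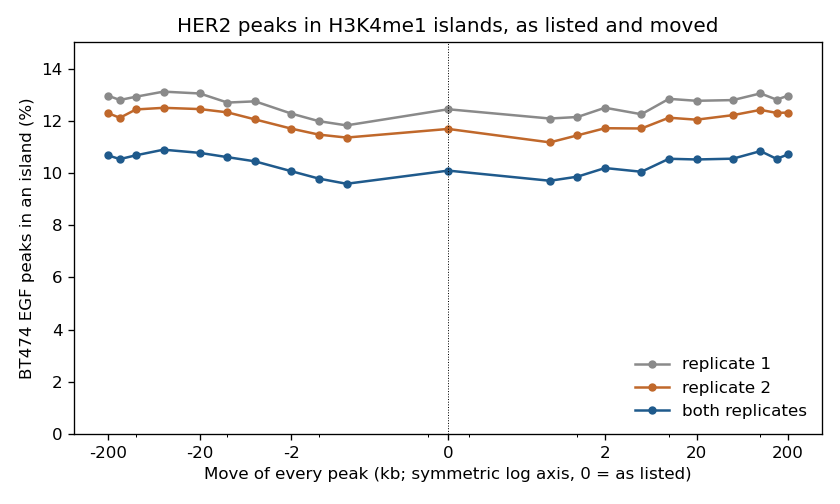
Share of BT474 EGF peaks in an H3K4me1 island (vertical axis, %) against the distance by which every peak was moved (horizontal axis, kb, symmetric log scale), for replicate 1, replicate 2 and both. The share in both was 10.09% at the listed position, 9.59 and 9.70% at 0.5 kb, and between 10.5 and 10.9% from 20 kb outwards.

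The share rose with the HER2 score, a value that the authors gave each peak on an unstated scale. In 5 classes of about equal size, from the lowest scores to the highest, it was 8.39% (484 of 5771 peaks), 8.93%, 10.1%, 11.0% and 11.95% (705 of 5898). The moved peaks of the same classes rose less, from 9.81 to 11.9%. The low-scoring peaks accordingly lay in islands less often than their moved copies, with a ratio of 0.855 in the lowest class and of 0.885 in the next, and both listed shares were below all 10 moves. In the upper 2 classes the ratios were 1.01 and 1.00, and the listed shares lay within the range of the moves. The median score of the members was 61 (quartiles 40 and 106), against 55 (36 and 93) outside islands.

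**Figure D2:**
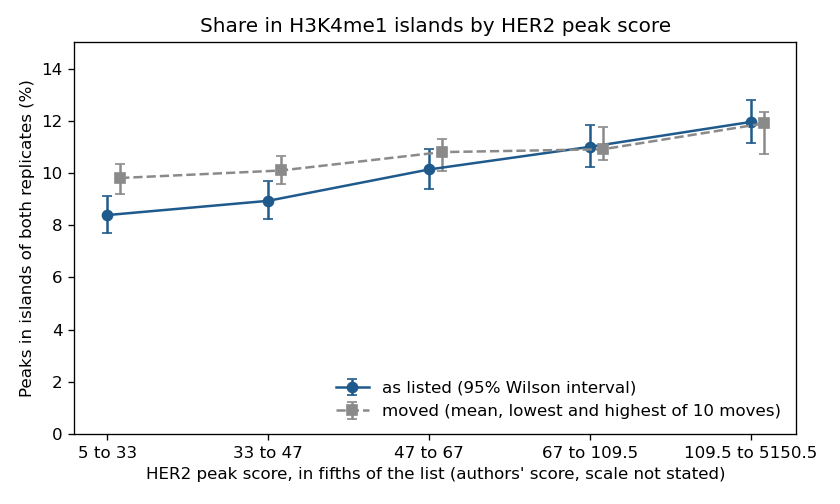
Share of peaks in islands of both BT474 replicates (vertical axis, %) by class of the HER2 score (horizontal axis, 5 classes of about equal size), as listed with 95% Wilson intervals and as the mean, lowest and highest of 10 moves. The listed share rose from 8.39 to 11.95% and met the moved share in the upper 2 classes.

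The share of members differed between chromosomes. Chromosome 19 had the highest share of members, 14.5% (133 of 916 peaks), above the 10.7 to 13.3% of its moves. Chromosome X had the lowest, 4.54%, within the 3.39 to 5.10% of its moves. On chromosome 20 the listed share of 11.7% was below all moves (13.0 to 16.1%). The same held for chromosomes 5 (8.99%, moves from 9.18%), 12 (9.84%, moves from 10.3%) and 18 (8.13%, moves from 8.68%). Without chromosomes 17 and 20, which carry well-known amplified regions in this line, the share over all chromosomes was 9.96%.

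The rule takes a peak that touches an island by a single base, so its edge is described once. Of the members, 559 (18.9%) were covered by islands in part, 280 of them by less than 50% in a replicate, and 3 overlapped by the smallest length of 1 bp, with a median score of 38. On the other side 928 outside peaks (3.68%) lay within 500 bp of an island, with a median score of 55. The median outside peak lay 12184 bp from the nearest island.

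The next question was at which genes the members lay. They were close to transcription start sites: 510 of them (17.2%, interval 15.9 to 18.6%) had a start site within 1 kb, against 1749 outside peaks (6.94%, 6.63 to 7.26%) and 8.29% of all peaks in the list. Within 10 kb the shares were 60.1% of members and 40.1% of outside peaks, with 42.8% over the whole list. The median distance was 6555 bp for members and 14640 bp outside. Islands themselves lie near start sites, so members were also compared with moved peaks that had landed in islands of both replicates. These had a start site within 10 kb in 59.4% (57.8 to 61.3% over the moves), the same range as the members. Within 1 kb they reached 14.6% (13.2 to 15.5%), and here the members were above every move.

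**Figure D3:**
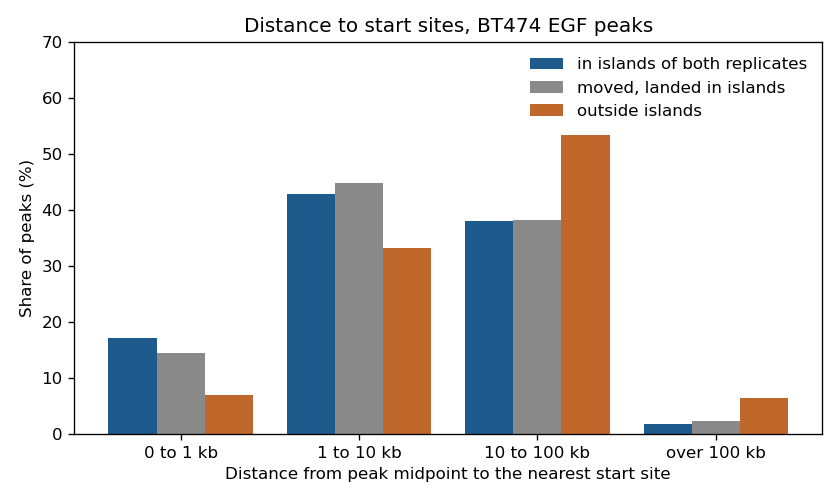
Share of peaks (vertical axis, %) by distance from the midpoint to the nearest start site (horizontal axis), for members, for moved peaks that landed in islands, and for peaks outside islands. Members exceeded the moved peaks in islands in the nearest band, 17.2 against 14.6%, and the 2 sets were alike from 10 to 100 kb, 38.1 against 38.3%.

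Promoters, taken as the 1 kb upstream of a start site, held 301 members (10.17%, 9.13 to 11.3%), compared with 3.74% of outside peaks and 8.32% of moved peaks in islands (7.46 to 8.99%). Exons held 6.49% of members and 4.26% of outside peaks. Most members lay in introns, 61.2% against 54.3% outside, and 22.2% were intergenic against 37.7%. Exon, intron and intergenic shares of the members were all within the range of the moved peaks in islands. Members within 1 kb of a start site had a median GC content of 48.5% around the midpoint, and those further than 100 kb away had 39.6%.

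A start site within 10 kb of a member belonged to 1448 of 20136 protein-coding genes (7.19%), whereas 6330 genes (31.4%) had any peak of the list there. Moved peaks in islands reached 1502 genes on average (1444 to 1563). Of the genes with a member, 477 also had a peak outside islands within the same distance. Most genes with a member in the gene body had a single one (1306 genes), 221 had 2, and 10 had 5 or more.

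The MAP kinase cascade, which carries signals from EGF receptors to the nucleus, had a member within 10 kb of a start site at 2 of 35 genes, and 15 of the 35 had any peak. The moved peaks in islands gave 3.8 genes on average (2 to 7). At MAP3K13 the member lay in an intron at chr3:185082112-185082399, 1.226 kb from a start site, with a score of 117. It was not listed in BT474 vehicle, was listed in SKBR3 EGF, and lay in islands of 4.6 and 6.4 kb with 463 and 455 reads. MAP3K13 contained 4 other peaks, all outside islands, and the highest of these, with a score of 294.5, exceeded the member. MAPK11, which encodes p38 beta and is also named by the study, had no member, and the single peak within 10 kb, outside islands, scored 14.5. The study names these genes from its lists for SKBR3 and BT474 together, without saying which line held which gene.

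The protein kinase C family, which acts downstream of phospholipase C and diacylglycerol, had members at 4 of 12 genes, PRKCH and PKN3 among them. Any peak was found at 8 of the 12, and the moves gave 1.9 genes (1 to 4), so the 4 were the upper end of their range. PRKCH held 9 peaks, of which 2 were members with scores of 80.5 and 84, in islands of 8.8 and 40.6 kb in replicate 1. Neither was listed in BT474 vehicle. Its highest-scoring peak, at 543, was listed in BT474 vehicle and SKBR3 EGF and lay outside islands. The member at PKN3, a kinase related to protein kinase C, scored 48.5, lay 8.475 kb from the PKN3 start site and closer to that of ZDHHC12, and held the core.

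Immediate early genes, which respond to growth factors within minutes, had members at 4 of 18 genes, SRF, MYC, JUNB and EGR1, with any peak at 8 and 1.7 genes after moving (0 to 4). The SRF member scored 216, lay 1.344 kb from a start site and held the core. Its midpoint fell at or before the start of its island in both replicates. The core, which lies before the midpoint, was therefore outside that island. The MYC member lay in an exon, scored 162.5 and was listed in no other condition, in islands of 6.8 kb with 427 and 335 reads. The JUNB member scored 72.5 and lay 6.716 kb from the JUNB start site, closer to that of HOOK2, in islands of 9.6 kb with 1218 and 1007 reads.

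Of the adaptors, RAS and PI3K genes that carry ERBB signals, 1 of 30 had a member, AKT1, whose peak scored 64.5, lay 2.285 kb from a start site and held the core. Any peak was found at 9 of these genes, and the moves gave 4.1 (2 to 6). The ERBB receptors and EGF family ligands had no member at any of 15 genes, although 6 had a peak outside islands, and moving gave 0.9 (0 to 2). The feedback inhibitors of EGF signalling, such as the dual-specificity phosphatases and Sprouty proteins, had no member at any of 18 genes, with a peak at 3 and 2.1 genes after moving (0 to 4). Luminal transcription factors had members at 2 of 22 genes, with any peak at 6 and 4.7 after moving (2 to 7). These were GRHL1, a grainyhead factor of epithelia, with a score of 48, and TBX3, a T-box factor, with a score of 21.5. No list stood above the range of its moves, and the adaptor list stood below it.

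Among protein-coding start sites, the 10 members with the highest scores were nearest to those of CPLANE1 (score 1528.5), SHH (1247), GSE1 (1006), RGS9 (985), NDUFA10 (863.5), PTPN1 (791), CEBPB (761), TNS3 (735), ACIN1 (690.5) and TRIP11 (674.5). At several of them, SHH, CEBPB and TNS3 included, a start site of another annotated gene lay closer. PTPN1 encodes the phosphatase PTP1B, CEBPB a leucine zipper transcription factor and RGS9 a regulator of G protein signalling. All 10 were also listed in BT474 vehicle and in SKBR3 EGF, and 3 of them in SKBR3 vehicle. In the whole of the highest score class, BT474 vehicle listed 65.0% of members and 69.7% of outside peaks. SKBR3 EGF listed 24.7 and 24.2%, so such sharing was about as frequent outside islands. Only 5 of the 10 members had any start site within 10 kb, and the nearest protein-coding one was between 0.096 kb (ACIN1) and 526.084 kb (TNS3) away. The island of replicate 1 was narrower than the members' median at 7 of the 10. At CPLANE1 the islands were 0.8 and 1.8 kb wide and held 36 and 37 reads, while at ACIN1 they were 11.8 and 20 kb wide with 1078 and 1213 reads. At NDUFA10 and PTPN1 the peak midpoint lay past the end of the island in both replicates. At SHH it lay past the end of the replicate 1 island and at or before the start of the replicate 2 island. SKBR3 had islands of both replicates at 5 of the 10 sites, of a single replicate at 2 and none at 3. At 4 of the 10 (SHH, GSE1, NDUFA10 and CEBPB) fewer than 50 distinct 4-base words were present.

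Among the genes with most members were GSE1 with 7, LPP and RAD51B with 6 each, and ANK3, the first in the alphabet of 6 genes with 5. GSE1 had 7 among 13 peaks and 6.5 after moving. LPP, a LIM domain protein of cell adhesions, had 6 among 14 and 4 after moving. RAD51B, a homologous recombination factor, had 6 among 10 and 6.4 after moving. ANK3, the membrane adaptor ankyrin G, had 5 among 9 and 2.3 after moving.

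The second measure was the islands themselves. Members lay in 2820 islands of replicate 1 (2.93% of the islands) and 2823 of replicate 2 (3.15%), and these held 6.82 and 6.95% of the island reads. The median island with a member was 4200 bp wide in both replicates, against 2200 bp over all islands. It held 236 reads in replicate 1 and 194 in replicate 2, against 103 and 91 over all. Per kb of island these were 57.8 and 47.8 reads, against 50 and 42.7. A wide island catches more peaks by its length, and the moved peaks landed in islands of 4360 and 4300 bp with 58.4 and 48.6 reads per kb. The widths of the members' islands were thus at the lower end of the 4200 to 4600 bp and 4200 to 4400 bp of the moves. Their reads per kb were slightly below all 10 moves in both replicates. The moves ranged from 57.9 to 59.2 in replicate 1 and from 48.3 to 49.3 in replicate 2.

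When members were counted per Mb of island, the count was highest in islands under 1 kb and lowest in the widest. A peak that only touches an island is counted too, which weighs most in narrow islands, for listed and moved peaks alike. The listed count is therefore best read beside the moved one. In replicate 1 islands under 1 kb had 11.3 members per Mb (56 members) and 8.51 after moving. Islands from 10 to 20 kb had 9.69 per Mb and 11.3 after moving. Islands of 50 kb or more had 2.46 per Mb (18 members in 11 islands) and 4.11 after moving. Replicate 2 gave 15.4, 10.21 and 4.14 per Mb for the same classes, against 12.2, 11.2 and 4.73. The order was the same in both replicates, with listed peaks above the moved mean in islands under 2 kb and below it in every class above.

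**Figure D4:**
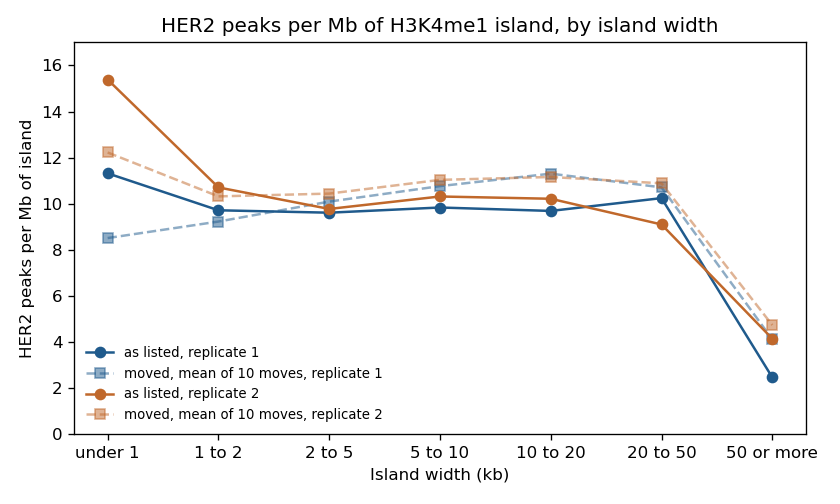
HER2 peaks per Mb of island (vertical axis) by island width (horizontal axis, kb) in each BT474 replicate, for members and for moved peaks in islands of both replicates (mean of 10 moves). In replicate 1 the listed peaks had 11.3 per Mb in islands under 1 kb and 2.46 per Mb in islands of 50 kb or more. The moved peaks rose from 8.51 under 1 kb to 11.3 at 10 to 20 kb, and had 4.11 at 50 kb or more.

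Islands with more than 2 members numbered 7 in replicate 1 and 8 in replicate 2. Those of replicate 1 included islands at FOXP4, TBCD, GNAS and DIP2C, which were chosen for naming after their values were seen. FOXP4 is a forkhead factor, and GNAS encodes the stimulatory G protein subunit. At FOXP4, TBCD and GNAS 3 members each lay in islands of 38.4, 23 and 16.6 kb, in a part of the island only. They were 75.1 to 97.5% of the way along at FOXP4, 30.5 to 65.3% at TBCD and 42.4 to 67.6% at GNAS (replicate 1). DIP2C had 4 members in an island of 2.8 kb. Its island held 85 reads in replicate 1 and 63 in replicate 2, and 3 of the 4 members had 35 to 37 distinct words.

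Position within the island was measured from the peak midpoint. In replicate 1 31.7% of members (30.0 to 33.4%) lay in the third of the island around its centre, and in replicate 2 31.4% did, compared with 33.5 and 32.8% of moved peaks. The median relative position was 0.505 and 0.5004 of the way along, so the upstream and downstream sides held about equal numbers. The midpoint lay within 500 bp inside an island edge, or beyond the edge, for 32.8% of members in replicate 1 (31.2 to 34.6%). In replicate 2 this was 34.1% (32.4 to 35.8%). The moved peaks gave 29.7% (28.0 to 31.0%) and 30.6% (29.5 to 32.0%), so this share was higher in members than under all 10 moves in both replicates. It counts peaks that only touch an island together with peaks near an edge inside it, and does not separate the 2 kinds. The whole peak was inside the islands for 81.1% of members and for 83.4% of moved peaks (81.8 to 84.0%).

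The last question on islands was whether SKBR3 had an island at the same site. An island of both SKBR3 replicates was present at 1599 members (54.0%, 52.2 to 55.8%), an island of a single replicate at 315 (10.6%), and none at 1045 (35.3%). Of the outside peaks, 4.55% (4.30 to 4.81%) had an island of both SKBR3 replicates, and so had 10.4% of all peaks. Moved peaks in BT474 islands had SKBR3 islands in 54.9% of cases (53.6 to 56.6%), a range that includes the value of the members. The peaks with an island of 1 BT474 replicate only stood in between, with 26.7%.

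**Figure D5:**
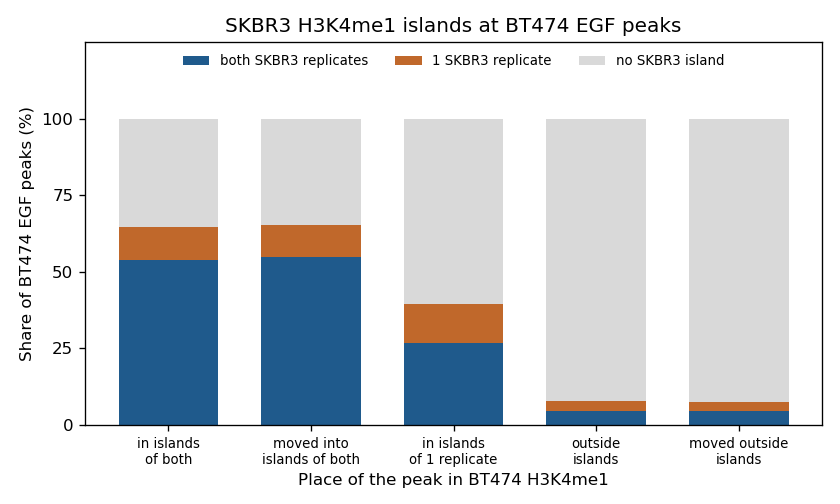
Share of BT474 EGF peaks (vertical axis, %) with an SKBR3 H3K4me1 island of both replicates, of 1 or of none, for 5 sets by their place in BT474 islands. Members and moved peaks in islands both showed about the same share in both SKBR3 replicates, 54.0 and 54.9%, against 4.55% outside.

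Members with and without the SKBR3 island differed in their BT474 islands. The median BT474 island was 5200 bp wide with 62.0 reads per kb (replicate 1) where both SKBR3 replicates had an island, and 3000 bp wide with 51.7 reads per kb where neither had. A start site lay within 10 kb of 62.4% (59.9 to 64.7%) of the former and 54.6% (51.6 to 57.6%) of the latter. The median HER2 score was 62 and 60. An SKBR3 EGF peak was listed at 9.26% (7.93 to 10.8%) and 6.51% (5.17 to 8.17%), intervals that overlapped slightly.

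Other HER2 lists were then read at the same sites. In BT474 vehicle, 872 members were also listed (29.5%, 27.9 to 31.1%), compared with 26.1% (25.6 to 26.6%) outside and 26.5% of the whole list. In SKBR3 EGF, 237 members were listed (8.01%, 7.09 to 9.04%), compared with 7.11% outside and 7.19% of the whole list, and in SKBR3 vehicle 3.82% compared with 3.74%. The vehicle share depended on score. In the 4 lower score classes it was higher in members, with 9.30 against 6.89% outside in the lowest, 12.05 against 9.78%, 17.2 against 15.1% and 31.3 against 30.2%. In the highest class it was lower, 65.0% of members against 69.7% of outside peaks, and among all peaks at or above the median score it was 43.5% in both sets. Peaks listed only after EGF were members in 9.69% of cases, a ratio of 0.917 to their moves. Those also listed after vehicle were members in 11.2%, a ratio of 1.01. With 1 list per condition no test of treatment was possible.

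In the core and in short repeated words, the sequence near the midpoint differed more from that of moved peaks than it did between members and outside peaks. The core was found within 50 bp of 275 members (9.29%, 8.30 to 10.4%), of 7.27% of outside peaks (6.96 to 7.60%) and of 7.48% of the whole list. Moved peaks in islands had it in 1.15% (0.796 to 1.67%). Peaks with the core were members in 12.5% (11.2 to 14.0%) of cases, above the 10.1 to 12.3% of their moves, and those without it in 9.89%, below theirs (10.4 to 10.9%). Letters that fit this core also occur in the public Illumina P7 library primer, which was not searched for here.

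Stretches of few words, such as those at SHH and DIP2C, were found at similar shares of members and outside peaks over all scores. Fewer than 50 distinct 4-base words within 50 bp of the midpoint were present at 257 members (8.69%, 7.72 to 9.75%) and at 8.08% (7.75 to 8.43%) of outside peaks. After moving, 0.810% (0.605 to 1.00%) of the peaks in islands and 1.36% of those outside had so few. In the highest score class the share was 13.3% of members and 10.4% of outside peaks, and in the middle class it was 5.01 and 7.06%. In the other classes it lay between 7.10 and 9.09% of members and between 6.96 and 9.02% outside. The median GC content was 43.6% for members, 40.6% outside and 42.7% for moved peaks in islands.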

How the data were processed

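The series holds 1 HER2 ChIP-exo peak list for each line and treatment, and H3K4me1 ChIP-seq islands of 2 replicates per line. Samples were grouped by the line, treatment and antibody in their labels. Inputs were not analysed here. Reads were aligned to hg19 with bowtie2, according to the paper's methods, and then given to MACS2 (HER2) or SICER (H3K4me1) with input as the control. Blacklisted and high-input regions were removed. The submitters' processing notes name BWA 0.5.9, MACS 1.4.1 and SICER 1.1 instead of some of these, and which were run was not settled. The HER2 score was used as deposited by the authors, and its scale is not stated. Each island's read count is the deposited one, unscaled for depth. The lists hold no summits, so midpoints were used.

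Peaks and islands were joined with Python 3.11.15 and numpy 2.4.6 at an overlap of 1 bp. Genes came from GENCODE 44 mapped to GRCh37, and start sites were those of all transcripts. Words were distinct 4-base strings within 50 bp of the midpoint. Moved windows that left the chromosome or held unknown bases were dropped. Intervals are 95% Wilson intervals and, like the ranges over 10 moves, are descriptions over peaks of 1 library. They cover counting error only, and no p-value was computed. The overlap functions were tested on simulated data, where planted shares of 10 and 30% of 2000 peaks were recovered as 10 and 30%.

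The members, gene lists and motif were chosen with earlier results of these data known. The genes named were those the study names (MAP3K13, PRKCH, MYC and MAPK11), the nearest protein-coding genes of the 10 highest-scoring members, the 5 genes with most members, up to 3 genes of each list with the highest-scoring members, and the genes at the widest and most-read islands. Some of the genes that this rule names are not reported here. Alternatives covered the overlap, each replicate, the score, chromosomes 17 and 20, the start sites, joined islands, the motif window and the moves. Peaks with the core, and those with few words, were left out in alternatives chosen after seeing the data.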

Additional observations from a re-analysis of the deposited data

How the results depend on the processing

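The 10 results were recomputed under alternatives, giving 78 values, of which 52 moved by less than their counting interval, the spread between replicates or 1.5 times and 26 by more. With 50% of the peak covered in each replicate the members were 9.14% of the list, 56.1% of them had an SKBR3 island, their islands were 4400 bp wide and 34.2% lay in the third of the island around its centre. With 1 BT474 replicate left out in turn the share of the list was 11.7 to 12.4%, the SKBR3 share 49.1 to 50.1%, the island width 3800 to 4000 bp and the central share 28.9 to 29.3%. Among peaks at or above the median score the share was 11.2%, its ratio to the moves 0.982, the central share 31.8%, the vehicle share 43.5%, the median score 99.5 and the genes 819. An island of either SKBR3 replicate was present at 64.7% of members. Protein-coding start sites alone gave 44.5% within 10 kb, and all genes gave 2587 genes with a member. Joined islands were 4600 bp wide with 32.0% at the centre. The core was in 14.5% of whole peaks. Without peaks with the core the vehicle share was 27.1%, and without peaks of few words the central share was 31.8%. The ratio of listed to moved shares was below 1 under each alternative run, but at or above the median score its interval, 0.938 to 1.03, included 1. Without chromosomes 17 and 20 all 10 results stayed within those limits.

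No paired analysis was possible because no result came from a test between groups. The lack of HER2 replicates, the unknown depth of the HER2 libraries, the unstated score scale and the unsettled treatment of the H3K4me1 cells limit every value given. The lower island share of low-scoring peaks and the higher share of midpoints near or beyond island edges are differences of 1 list from its moved copies. Their cause was not tested.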
